A study of Homo sapiens with 26 samples.

Results

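The response of A549 cells to Omomyc was set against that of H1975 and H1299 cells, 3 human lung cancer lines profiled on arrays after the protein or its vehicle. For every gene the measure was the log2 change with Omomyc in A549 minus the mean of the same changes in the other lines, so that a positive value means a larger rise or a smaller fall in A549. All 26 of 26 arrays entered it. A549 had 4 PBS and 3 Omomyc arrays, H1975 had 4 and 5, and H1299 had 5 and 5. Cells grew in RPMI1640 with glutamine and 10% fetal bovine serum, were left overnight after plating and then received Omomyc at 12.8 µM or PBS, the vehicle and the control in each line. The labels do not state how long the cells were exposed. They call the arrays biological replicas and nothing else says that these were separate cultures, so p-values measure the spread between arrays, which may be technical. A line differs from the others in all of its genotype and origin, so a difference in response cannot be assigned to any one property of A549. Since RNA was taken from whole cultures, a change in the make-up of the culture and a change of RNA per cell cannot be told apart.

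Omomyc is a small protein built from the part of MYC that forms dimers. It pairs with MYC, with its partner MAX and with itself, and so competes with MYC for MAX and for the E-box sequence on DNA. A549 has lost KEAP1 and STK11 function, H1975 carries mutant EGFR and H1299 mutant NRAS, among other differences. The endoplasmic reticulum (ER) folds secreted proteins, and its stress response raises chaperones through ATF6 and XBP1 and amino acid supply genes through PERK and ATF4. E2F factors raise the genes that copy DNA at the start of S phase, and the proteins of the circadian clock act through E-boxes in one another's promoters.

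Promoter windows of 6 genes named below are shown, and no result rests on them. Of 3 ER stress genes, CRELD2 and HYOU1 rose more in A549 while HSPA5, the main ER chaperone, did not pass the test of the difference. The others are 2 clock genes whose rise was missing and 1 replication gene whose fall was missing. Each window holds 300 bases, 250 before and 50 after the start of the gene, from RefSeq on GRCh38.p14, and 14250 of the 17687 genes measured had one. Capitals in the ER genes mark the ER stress elements ERSE (CCAAT and CCACG joined by a run of 9 bases of any kind) or ERSE-II (ATTGG, any base and CCACG) on either strand, which ATF6 and NF-Y bind. CRELD2 lies at chr22:49918384-49918683 (+ strand), HYOU1 at chr11:119057156-119057455 (- strand) and HSPA5 at chr9:125241294-125241593 (- strand).
CRELD2: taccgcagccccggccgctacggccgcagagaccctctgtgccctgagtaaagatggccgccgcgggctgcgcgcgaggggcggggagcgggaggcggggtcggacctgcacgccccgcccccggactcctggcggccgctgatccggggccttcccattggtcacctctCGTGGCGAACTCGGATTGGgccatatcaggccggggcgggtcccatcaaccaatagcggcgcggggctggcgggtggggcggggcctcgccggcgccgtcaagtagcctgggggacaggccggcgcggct
HYOU1: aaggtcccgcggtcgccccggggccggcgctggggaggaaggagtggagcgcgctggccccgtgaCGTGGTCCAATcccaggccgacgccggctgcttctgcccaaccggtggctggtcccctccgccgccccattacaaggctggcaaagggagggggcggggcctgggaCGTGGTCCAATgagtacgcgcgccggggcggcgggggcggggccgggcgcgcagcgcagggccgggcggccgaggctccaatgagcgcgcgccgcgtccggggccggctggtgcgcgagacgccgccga
HSPA5: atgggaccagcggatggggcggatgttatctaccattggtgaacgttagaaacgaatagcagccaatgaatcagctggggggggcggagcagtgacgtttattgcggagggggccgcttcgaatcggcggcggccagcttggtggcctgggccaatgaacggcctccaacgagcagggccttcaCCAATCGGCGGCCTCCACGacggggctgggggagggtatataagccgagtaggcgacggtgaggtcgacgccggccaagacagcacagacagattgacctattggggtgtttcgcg
In the clock genes capitals mark the E-box CACGTG, which MYC-MAX pairs and clock proteins can bind, in CIART at chr1:150282304-150282603 (+ strand) and BHLHE40 at chr3:4979187-4979486 (+ strand). In CDC6 at chr17:40287629-40287928 (+ strand) they mark TTTNNCGC, a relaxed form of the E2F site, searched on either strand.
CIART: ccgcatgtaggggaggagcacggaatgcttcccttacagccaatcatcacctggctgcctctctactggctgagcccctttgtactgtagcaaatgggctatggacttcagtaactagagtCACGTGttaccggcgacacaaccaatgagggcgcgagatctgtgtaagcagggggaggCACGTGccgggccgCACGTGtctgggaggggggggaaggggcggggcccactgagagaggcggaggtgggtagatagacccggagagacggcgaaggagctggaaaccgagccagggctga
BHLHE40: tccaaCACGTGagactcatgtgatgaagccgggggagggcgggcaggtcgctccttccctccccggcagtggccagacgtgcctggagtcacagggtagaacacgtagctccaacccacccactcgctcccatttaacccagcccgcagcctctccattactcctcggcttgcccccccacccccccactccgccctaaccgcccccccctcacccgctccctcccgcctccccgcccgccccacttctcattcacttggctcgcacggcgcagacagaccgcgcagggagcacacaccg
CDC6: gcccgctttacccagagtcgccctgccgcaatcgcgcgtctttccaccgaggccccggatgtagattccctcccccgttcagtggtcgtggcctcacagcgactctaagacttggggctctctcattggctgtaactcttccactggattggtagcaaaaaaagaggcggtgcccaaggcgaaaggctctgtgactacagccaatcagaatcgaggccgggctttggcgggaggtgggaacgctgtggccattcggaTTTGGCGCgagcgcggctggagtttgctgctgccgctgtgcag
ERSE was found in 18 of all 14250 windows (0.126%) and in 5 of the 23 windows of the ER chaperone list. ERSE-II was found in 12 of all windows (0.0842%), and HYOU1 held 2 copies, of which the upstream copy overlaps the letters TGACGTGG of the UPRE element. CACGTG was found in 8.69% of all windows and in 4 of 18 windows of the clock list, with 3 copies in CIART. By the classes described below, it was in 16.7% of windows of stronger rises and 13.3% of stronger falls. For missing rises and missing falls the shares were 17.6% and 15.3%. The windows of PER3 and NR1D1, also clock genes with a missing rise, held no CACGTG. TTTNNCGC was found in 8.87% of all windows and in 28 of the 53 windows of the replication list, but not in FEN1, another gene with a missing fall. Thus the windows printed are those with a match. These matches describe letters in a window and say nothing of binding in these cells.

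Values were the deposited log2 levels of 17687 genes, whose median was 6.48. Levels at or below 6.69, the highest mean among 23 background probe sets, are called not above background. Clustering the arrays on the distribution of their values gave 3 sets of 9, 10 and 7 arrays, and set membership accounted for 97.3% of the leading component of the residual variation. A549 had 2 PBS and 2 Omomyc arrays in the first set and 1 of each in the second, but in the third set it had 1 PBS array and no Omomyc array. Values within the first and second sets are given beside some of the genes and lists below, not all. All 5 markers of NRF2-high A549 cells were higher in A549 than in either other line. The 5 endothelial markers, and PTPRC, CD3E and LYZ among the 4 leukocyte markers, were not above background in any group, while CD68 lay between 9.09 and 14.35. Of 5 fibroblast markers DCN, LUM and PDGFRA were not above background in any group, nor were COL1A1 and COL1A2 in A549 and H1299. In H1975 COL1A1 was at 9.44 with PBS and 8.3 with Omomyc and COL1A2 at 8.05 and 7.32, neither called. KRT8 and KRT18 were at 12.81 or more in every group, but EPCAM, KRT7, KRT19 and CDH1 were not above background in H1299, nor was CDH1 in H1975.

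A549 responded differently from the mean of the other lines in 488 genes, 2.76% of those tested (adjusted p under 0.05, limma with Benjamini-Hochberg adjustment). The difference was positive in 280 genes (1.58%) and negative in 208 (1.18%). With each array centred on its own median the counts were 314 and 364, so the balance of directions depended on the scaling, and the median difference of all genes moved from 0.057 to -0.063. In 472 of the 488 genes the A549 change lay outside the changes of both other lines, and in 16 it lay between them. Set against each line alone, 817 genes (4.62%) differed from H1975 and 437 (2.47%) from H1299. Within the lines, 162 genes rose (0.916%) and 49 fell (0.277%) in A549. In H1975 985 rose (5.57%) and 1110 fell (6.28%), and in H1299 770 rose (4.35%) and 799 fell (4.52%).

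The 488 genes were sorted by what each line did, which uses the same arrays as the difference and so describes it without testing it. A549 rose more than the others in 60 genes, with median log2 changes of 1.58 in A549, 0.1 in H1975 and 0.13 in H1299. Of these, 19 were not above background in either other line and 4 not in A549. A549 fell more in 22 genes, with medians of -1.45, 0.1 and 0.11. Of the 22, 15 were not above background in either other line and 7 not in A549. The A549 PBS mean was above both other lines in 53.3% of the stronger rises and 81.8% of the stronger falls, against 27.4% of all genes. The part of the starting level in these classes was not tested. A549 and the mean of the others were called in opposite directions in 15 genes, of which 7 rose and 8 fell in A549. The mean of the others was called higher in 7.3% and lower in 7.82% of all genes. A rise that both other lines had and A549 did not was seen in 63 genes, with medians of -0.29 in A549, 1.31 in H1975 and 1.04 in H1299. A fall missing in A549 was seen in 69 genes, with medians of 0.22, -1.38 and -1.19. Of the 63 missing rises 7, and of the 69 missing falls 6, were not above background in A549. For those genes the missing change has no measured size. For 57 of the 63 and 58 of the 69, the 95% interval of the A549 change ended short of 50% of the mean change of the others. In the remaining 259 genes neither A549 was called with the sign of the difference nor both others alike: 140 were called in H1975 alone, 71 in H1299 alone, 3 in opposite directions in the 2 lines and 45 in no line.

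**Figure D1:**
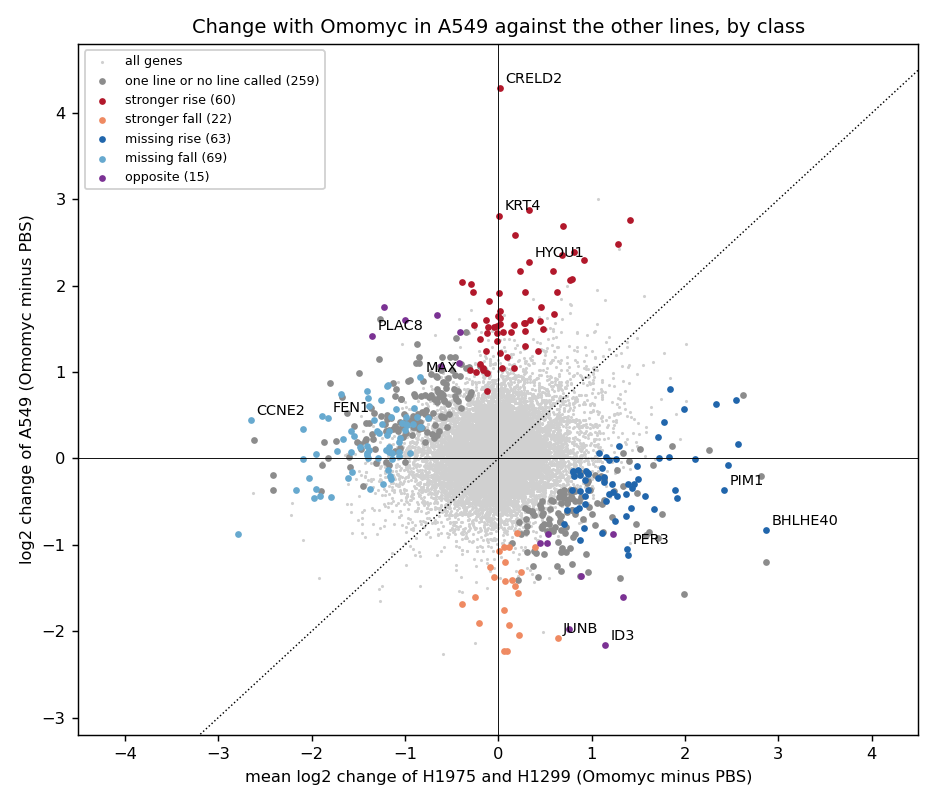
Log2 change with Omomyc in A549 (vertical axis) against the mean change of H1975 and H1299 (horizontal axis), 1 point per gene, coloured by class, with the dotted line marking equal change. CRELD2 stands apart at a change of 4.29 in A549, while BHLHE40 and CCNE2 lie far out on the horizontal axis with changes of -0.83 and 0.44 in A549.

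Genes were then read in lines whose own changes did not choose them. All arrays shared the estimate of each gene's spread, so calls in the choosing and reading lines are not independent. Of 221 genes that rose in both H1975 and H1299, 28 rose and 2 fell in A549, against 0.916% and 0.277% of all genes. Their median change in A549 was 0.25, with quartiles of -0.11 and 0.66, against medians of 1.1 and 1.02 in the lines that chose them. Of 199 genes that fell in both, 3 fell and 2 rose in A549, and the median was -0.13 against -1.13 and -1.07. Of the 162 genes that rose in A549, 47 also rose in H1975 (5.57% of all genes did) and 59 in H1299 (4.35%), with medians of 0.44 and 0.49. Of the 49 that fell, 5 fell and 5 rose in H1975, 6 fell and 6 rose in H1299, and the medians were 0.03 and 0.02. Values on the arrays that chose a gene are enlarged by the choice, so the medians of choosing and reading lines are not on equal footing.

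**Figure D2:**
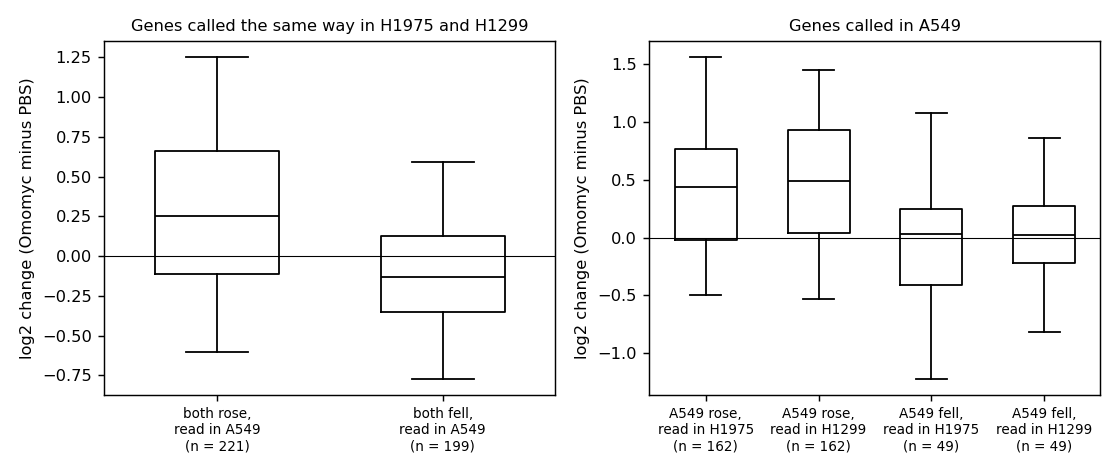
Box plots of the log2 change with Omomyc for genes called in both H1975 and H1299 and read in A549 (left), and for genes called in A549 and read in the other lines (right); boxes span the quartiles, the line is the median and whiskers reach the 5th and 95th percentiles. The A549 medians of 0.25 and -0.13 lie near 0, as do the medians of 0.03 and 0.02 for the genes that fell in A549.

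CRELD2, an ER stress-inducible cofactor of protein folding, had the largest difference. In the following, a value with ± is the A549 difference in response on the log2 scale with its SE, and its adjusted p is from limma. CRELD2 read 8.51, 8.43, 8.89 and 7.92 on the PBS arrays of A549 and 12.65, 12.94 and 12.58 on the Omomyc arrays. The H1975 values were 10.1, 9.81, 9.05 and 9.33 with PBS and 9.46, 9.56, 9.49, 9.39 and 8.64 with Omomyc. For H1299 the values were 7.65, 7.11, 8.17, 6.63 and 6.89, then 7.84, 7.59, 7.94, 7.67 and 6.94. The 3 A549 Omomyc arrays lay above all other 23 arrays, and the treatments overlapped in both other lines. The difference was 4.27 ± 0.38 (SE; adjusted p = 1.71e-07), and 4.53 and 3.63 within the first and second sets. HYOU1, a large chaperone and partner of HSPA5, read 13.34, 13.66, 13.28 and 13.34 with PBS and 15.8, 15.92 and 15.3 with Omomyc in A549. The H1975 values were 13.68, 13.68, 13.85 and 13.57, then 14.58, 14.24, 14.08, 13.97 and 13.81. Those of H1299 were 13.5, 13.56, 13.26, 12.98 and 13.16, then 13.33, 13.95, 13.51, 13.69 and 13.09. A549 alone was separated by treatment, and the difference was 1.94 ± 0.27 (SE; adjusted p = 0.000105).

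HSPA5 (BiP), the main Hsp70 of the ER, showed another pattern from its partners. It read 15.98, 15.65, 15.69 and 15.85 with PBS and 17.25, 17.09 and 17.26 with Omomyc in A549. H1975 arrays gave 15.58, 15.5, 15.25 and 15.25, then 17.03, 16.76, 16.65, 16.29 and 16.56. With H1299 the readings were 15.23, 15.14, 14.99, 14.81 and 14.82, then 15.17, 15.05, 14.82, 15.21 and 14.63. It rose by 1.41 in A549 and by 1.26 in H1975, without overlap of the treatments, and read -0.02 in H1299. The difference did not pass, at 0.79 ± 0.24 (SE; adjusted p = 0.0716), and passed with the array set as a block (adjusted p = 0.0283). HERPUD1, an ER degradation factor, followed the same order with 2.08, 1.91 and -0.33, and its difference was 1.29 ± 0.28 (SE; adjusted p = 0.0101). XBP1, the spliced transcription factor of the response, had changes of 0.97, 0.89 and -0.53, and its difference of 0.79 ± 0.34 (SE; adjusted p = 0.27) did not pass.

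In the difference 1.58% of all genes were higher and 1.18% lower, shares that apply beside each list count below. Across the ER chaperone list, 9 of 25 measured members were higher in the A549 difference and 0 lower, with a median of 1.04 beside 0.06 for all genes. The median was 0.76 within the first set and 1.08 within the second, and the list medians of the lines were 1.41 in A549, 0.19 in H1975 and 0.41 in H1299. FICD, which modifies HSPA5, had 2.41 ± 0.33 (SE; adjusted p = 0.000105). It read 9.36, 8.62, 8.95 and 9.4 with PBS and 11.16, 11.77 and 12.09 with Omomyc in A549, which did not overlap, while both other lines read between 6.79 and 7.86. NUCB2, a calcium-binding protein, had 1.68 ± 0.29 (SE; adjusted p = 0.00108). The other members that passed were chosen after their values were seen: DNAJC3 at 1.64 ± 0.31, MANF at 1.35 ± 0.31, DNAJB11 at 1.25 ± 0.27, DNAJB9 at 1.2 ± 0.31 and SIL1 at 1.19 ± 0.31. Of these MANF and DNAJB9 rose in all 3 lines. The MANF call was lost without A549 Omomyc replicate 1 (1.27, adjusted p = 0.0625), DNAJB9 lost it without A549 PBS replicate 2 or 4 or Omomyc replicate 1 or 2 (adjusted p at most 0.123), and SIL1 without PBS replicate 1, 3 or 4 or Omomyc replicate 1 or 3 of A549 (at most 0.112).

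Disulfide formation showed 7 of 18 members higher and 0 lower (median 0.61). Against H1975 alone 7 were higher (median 0.6) and against H1299 alone 2 (median 0.72), beside 2.7% and 1.4% of all genes. PDIA4, an isomerase, rose by 2.17 in A549 and its difference was 1.59 ± 0.34 (SE; adjusted p = 0.00854). AGR2, an isomerase of mucous cells, rose by 1.56 where H1975 and H1299 had -0.04 and 0.07, with 1.55 ± 0.33 (SE; adjusted p = 0.0087). TXNDC5 had 0.81 in A549, which did not pass on its own, and fell by 1.09 in H1975, with 1.47 ± 0.32 (SE; adjusted p = 0.0103). PRDX4, a peroxidase, had 1.21 ± 0.3 (SE; adjusted p = 0.0237) and lost its call without A549 PBS replicate 4, Omomyc replicate 1 or Omomyc replicate 2 (at most 0.082). Entry into the ER, signal cleavage and glycosylation held 12 of 37 members higher and 0 lower (median 0.74, with 0.58 and 0.64 within the sets). SPCS2 and SPCS3, subunits of signal peptidase, had 1.57 ± 0.27 (SE; adjusted p = 0.00126) and 1.32 ± 0.28 (SE; adjusted p = 0.00757). UAP1, which makes UDP-GlcNAc, had 1.39 ± 0.25 (SE; adjusted p = 0.0016), of which a fall of 1.62 in H1299 formed a part. GMPPB, which makes GDP-mannose, rose by 2.04, with 2.43 ± 0.55 (SE; adjusted p = 0.0123), and without A549 Omomyc replicate 3 it was 2.17 (adjusted p = 0.0577). ALG2, a mannosyltransferase, had 1.25 ± 0.27 (SE; adjusted p = 0.0086).

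Degradation of misfolded proteins held 4 of 28 members higher and 0 lower (median 0.5). SYVN1, the ubiquitin ligase of that pathway, rose by 2.39 in A549 and by 0.87 in H1975, with 1.58 ± 0.34 (SE; adjusted p = 0.00939), and without A549 Omomyc replicate 3 it was 1.22 (adjusted p = 0.0637). SELENOS had 1.14 ± 0.31 (SE; adjusted p = 0.0371) and lost its call when any 1 of 9 arrays was left out: PBS replicates 2, 3 and 4 and Omomyc replicates 1 and 2 of A549, PBS replicates 2 and 4 and Omomyc replicate 2 of H1975, and Omomyc replicate 1 of H1299 (adjusted p at most 0.161). UBXN8 had 1.44 ± 0.34 (SE; adjusted p = 0.0159), and without A549 Omomyc replicate 3 it was 1.33 (adjusted p = 0.0652). Vesicle transport genes rose in all lines: 14 of 40 members rose in A549, 10 in H1975 and 21 in H1299. Of all genes 0.916%, 5.57% and 4.35% rose there. In the difference 2 were higher and 1 lower (median 0.3). HID1, a trans-Golgi protein, had 2.55 ± 0.42 (SE; adjusted p = 0.000644) and was not above background in the other lines. SEC24B, a coat subunit, rose by 1.1 and 1.13 there and had -0.11 in A549. Its difference of -1.23 ± 0.28 (SE; adjusted p = 0.0139) was lost without A549 Omomyc replicate 1 or 2 (at most 0.0701). Of 14 sensors and factors of the response 1 was higher, WFS1 at 1.29 ± 0.3 (SE; adjusted p = 0.0156). Beside 1.58% of all genes, 1 call is no result about that list. The WFS1 call was lost without A549 PBS replicate 4 (1.1, adjusted p = 0.0542) or without Omomyc replicate 2.

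Outside the ER lists, KRT4, a keratin of mucosal epithelium, rose by 2.81 in A549, with 2.81 ± 0.34 (SE; adjusted p = 1.83e-05). It read 9.12, 8.47, 9.43 and 7.78 with PBS and 11.58, 11.68 and 11.28 with Omomyc, and was not above background in H1975 or H1299. LCN2, an iron-binding lipocalin, had 2.31 ± 0.43 (SE; adjusted p = 0.00252) and ANXA6, a membrane-binding annexin, 1.93 ± 0.43 (SE; adjusted p = 0.0104). SERPINF1, a secreted serpin, had 2.21 ± 0.5 (SE; adjusted p = 0.0139), and without A549 Omomyc replicate 3 it was 1.89 (adjusted p = 0.0708). EML2-AS1, an antisense RNA, had 2.01 ± 0.46 (SE; adjusted p = 0.0142), and without A549 Omomyc replicate 2 it was 1.9 (adjusted p = 0.0567). LCN2 was likewise not above background in the other lines.

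**Figure D3:**
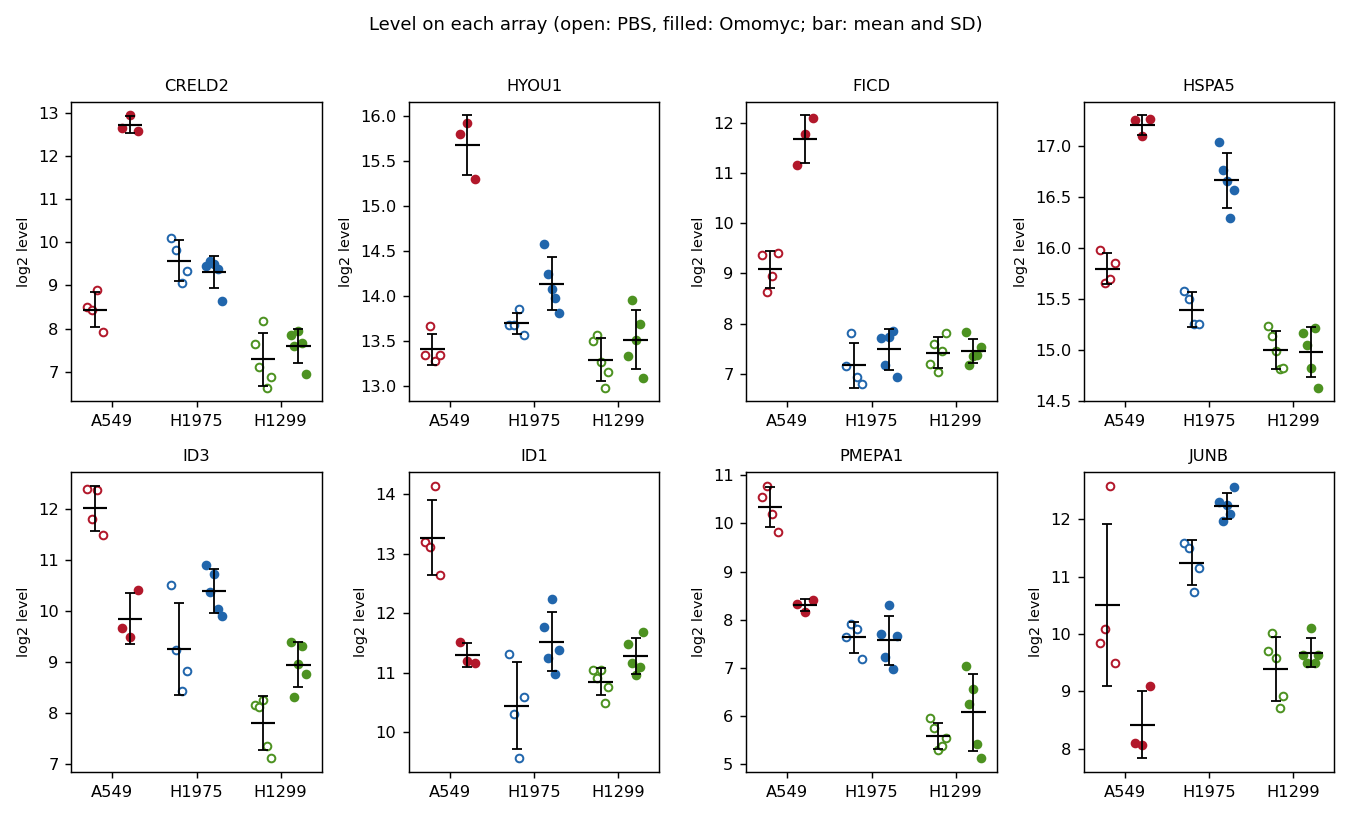
Log2 level on each array for 8 genes, by line, with open points for PBS and filled points for Omomyc, and bars for the group mean and SD. CRELD2, HYOU1 and FICD separate by treatment in A549 alone, HSPA5 also in H1975, and ID3, ID1, PMEPA1 and JUNB have lower Omomyc than PBS arrays in A549.

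Genes that fell in A549 and in neither other line included BMP and TGF-beta targets and the immediate early gene JUNB. PMEPA1, a feedback inhibitor of TGF-beta signalling, read 10.55, 10.78, 10.2 and 9.82 with PBS and 8.33, 8.16 and 8.4 with Omomyc in A549. For H1975 the readings were 7.63, 7.91, 7.8 and 7.19, then 7.7, 7.22, 8.3, 6.98 and 7.66. For H1299 it was not above background in either treatment on average. The A549 arrays did not overlap by treatment, and the difference was -2.26 ± 0.41 (SE; adjusted p = 0.00188). ID1 and ID3, which BMP signals raise and which block other helix-loop-helix factors, were called in opposite directions. ID3 read 12.39, 11.81, 12.38 and 11.5 with PBS and 9.67, 9.49 and 10.42 with Omomyc in A549. In H1975 it read 10.52, 9.24, 8.44 and 8.83, then 10.9, 10.38, 10.74, 10.05 and 9.91. The H1299 arrays held 8.16, 8.13, 8.26, 7.36 and 7.12, then 9.4, 8.32, 8.96, 9.33 and 8.78. All A549 Omomyc values lay below the PBS values and all H1299 Omomyc values above them, while H1975 overlapped. ID3 fell by 2.16 in A549 and rose by 1.14 and 1.15 in the others, a difference of -3.3 ± 0.46 (SE; adjusted p = 0.000105). ID1 fell by 1.98, rose by 1.08 in H1975 and had 0.43 in H1299, a difference of -2.73 ± 0.4 (SE; adjusted p = 0.000186).

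Of 33 TGF-beta and BMP targets, 9 were lower and 1 higher in the difference, BHLHE40 counted here too (median -0.59, with -0.66 and -0.73 within the sets). SNAI2, a factor of epithelial-mesenchymal transition, rose by 2.85 in H1975 and was not above background in either treatment in A549 (means 4.95 and 3.34) or H1299. Its difference of -2.94 ± 0.43 (SE; adjusted p = 0.000166) therefore rests on the rise in H1975 and on A549 readings without a measured level, and against H1299 alone it was -1.42 ± 0.47 (SE; adjusted p = 0.125). ID2, named after its values were seen, had -1.32 in A549, rose by 1.87 in H1975 and had -2.28 ± 0.49 (SE; adjusted p = 0.0087). BMP4, named in the same way, was the member that was higher, at 2.23 ± 0.38 (SE; adjusted p = 0.00116), and it fell by 5.15 in H1975 and had -0.19 in A549. Against H1299 alone 0 members of the list were higher, so BMP4 did not pass there. HHIP, a Hedgehog-binding protein, had -1.69 ± 0.43 (SE; adjusted p = 0.028) and lost its call without A549 PBS replicates 2, 3 or 4 or Omomyc replicate 3 (without the last -1.14, adjusted p = 0.184). The matrix protease MMP2 had -1.35 ± 0.33 (SE; adjusted p = 0.0195), and without A549 Omomyc replicate 1 it was -1.11 (adjusted p = 0.113).

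Several other falls of A549 concerned genes that were not above background in the other lines. MMP7, an epithelial matrix protease, read 10.7, 10.68, 10.69 and 9.71 with PBS and 8.15, 8.39 and 9 with Omomyc in A549 and at most 4.22 elsewhere. The treatments did not overlap in A549, and the difference was -2.05 ± 0.36 (SE; adjusted p = 0.0014). ABCG1, a sterol exporter, had -1.55 ± 0.25 (SE; adjusted p = 0.000604) and was likewise not above background in the others. INPP5F, a phosphatase above background with PBS in all lines, had -1.42 ± 0.3 (SE; adjusted p = 0.00748). PRG4, a lubricating proteoglycan, had -1.82 ± 0.41 (SE; adjusted p = 0.013) and lost its call without A549 Omomyc replicate 1 or 2 (at most 0.0694). FBN2, a fibrillin, and RASSF2, a RAS-binding protein, had -1.5 ± 0.39 (SE; adjusted p = 0.0297) and -1.66 ± 0.43 (SE; adjusted p = 0.0294). FBN2 lost its call without A549 PBS replicate 2 or 4 or Omomyc replicate 2 or 3 (adjusted p at most 0.127), and RASSF2 without PBS replicate 2, 3 or 4 or Omomyc replicate 1 or 2 (at most 0.109).

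JUNB, an AP-1 subunit, fell by 2.08 in A549. It read 9.84, 10.08, 12.58 and 9.5 with PBS and 8.09, 8.07 and 9.1 with Omomyc. PBS replicate 3 lay far above the other PBS arrays, and the difference of -2.72 ± 0.53 (SE; adjusted p = 0.0039) became -2.03 without it. Of 32 immediate early genes, which answer growth factors within minutes, 7 were lower and 0 higher in the difference (median -0.91). Of all genes 1.18% were lower and 1.58% higher. Against H1975 alone 9 of the list were lower and against H1299 alone 1, beside 1.92% and 1.07% of all genes. Of the list, 8 rose in H1975 (5.57% of all genes did) and 3 fell in H1299 (4.52%). The median was -0.64 in the first set and -2.05 in the second, where PBS replicate 3 is the only A549 PBS array, and -0.42 without that array. In H1975 NR4A1 rose by 4.34, DUSP1 by 3.56 and SIK1 by 3.5, while A549 had -1.2, -1.57 and -0.92. Their differences were -4.06 ± 0.72, -3.56 ± 0.64 and -2.64 ± 0.41, or -3.24, -2.72 and -2.46 without A549 PBS replicate 3, and against H1299 alone none of these 3 passed. ZFP36, which marks messages for decay and was named after its values were seen, had -2.47 ± 0.65 (SE; adjusted p = 0.0319) and lost its call without A549 Omomyc replicate 1 or 2 (adjusted p at most 0.121), and without PBS replicate 3 it was -1.54. The NF-kB list had 4 of 25 lower, TNFAIP3, CCL20 and PTGS2 among them, and 1 higher (CCL2), with a median of -0.66. PTGS2 lost its call without A549 PBS replicate 3 or Omomyc replicate 3 (adjusted p at most 0.0879) and CCL2 when any 1 of 7 arrays was left out (at most 0.105). CCL20, a chemokine, was not above background in any group on average, so its call has no measured size. TNFAIP3, the feedback inhibitor of the pathway, rose by 1.96 and 1.04 in the others and had -0.24 in A549, with -1.74 ± 0.38 (SE; adjusted p = 0.00917).

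Opposite responses were also seen where A549 rose. PLAC8, a small cysteine-rich protein, read 7.05, 6.62, 6.8 and 6.24 with PBS and 8.27, 7.67 and 8.34 with Omomyc in A549. The H1975 values were 9.9, 9.58, 9.79 and 8.83, then 7.87, 7.97, 9.04, 8.01 and 7.89. H1299 held 14.83, 14.78, 15.04, 14.39 and 14.44, then 13.31, 13.48, 13.7, 13.25 and 13.06. The A549 arrays separated upward and the H1299 arrays downward, and H1975 overlapped by 1 array. PLAC8 fell by 1.37 in H1975 and by 1.34 in H1299, and its difference was 2.77 ± 0.34 (SE; adjusted p = 1.83e-05). SCG2, a granin of secretory granules, rose by 1.75 in A549 and fell by 1.48 and 0.97 in the others, with 2.97 ± 0.42 (SE; adjusted p = 0.000119). ASS1, which makes argininosuccinate, rose by 1.66, had -0.12 in H1975 and fell by 1.19 in H1299, with 2.31 ± 0.25 (SE; adjusted p = 3.59e-06). LAMP3, a lysosomal protein of alveolar type 2 cells that stress also raises, rose by 1.6 and had -0.34 in H1975. It fell by 1.67 in H1299, with 2.6 ± 0.39 (SE; adjusted p = 0.000304). GAL3ST1, a sulfotransferase, fell by 1.36 and had -2.24 ± 0.36 (SE; adjusted p = 0.000548), at levels not above background in the other lines.

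The largest missing rise was BHLHE40, a transcriptional repressor that clock and stress signals raise. It read 13.28, 13.94, 15.38 and 13.59 with PBS and 13.32, 12.91 and 13.42 with Omomyc in A549. H1975 arrays gave 12.04, 11.75, 11.45 and 11.43, then 14.95, 15.13, 14.2, 14.89 and 15.01. H1299 went from 9.06, 8.8, 9.48, 8.6 and 8.3 to 11.49, 10.96, 11.54, 11.67 and 11.43. The treatments overlapped in A549 and did not in the others, and every A549 PBS array lay above every PBS array of the other lines. It rose by 3.17 in H1975 and by 2.57 in H1299 and had -0.83 in A549 (95% interval -1.55 to -0.12, not called after adjustment). The difference was -3.7 ± 0.41 (SE; adjusted p = 3.92e-06), -3.21 and -4.49 within the sets, and -3.26 without A549 PBS replicate 3, which was highest. Among the 63 missing rises A549 PBS was above both other lines in 34.9% and below both in 33.3%, against 27.4% and 39.3% of all genes. The part of the starting level in the missing rises was not tested.

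Of 18 clock genes 5 were lower in the difference and 0 higher (median -0.36, with -0.58 and -0.72 within the sets). In the lines, 9 rose in H1975, 6 in H1299 and 0 in A549. Of all genes 5.57%, 4.35% and 0.916% rose there, so the 0 in A549 is near its share of all genes. PER3, a period repressor, read 7.28, 6.97, 7.65 and 7 with PBS and 5.88, 6.25 and 6.38 with Omomyc in A549. For H1975 the readings were 8.68, 9.2, 9.47 and 8.92, then 10.3, 10.8, 9.65, 10 and 10.39. H1299 read 8.16, 8.38, 8.44, 8.94 and 8.31, then 10.61, 10.07, 10.12, 9.61 and 9.75. No line overlapped, with A549 lower and the others higher under Omomyc. The A549 Omomyc arrays were not above background, and the A549 change did not pass on its own. The difference was -2.43 ± 0.32 (SE; adjusted p = 6.19e-05). CIART, a clock repressor with 3 E-boxes in the window shown, rose by 1.47 and 1.31 and had -1.12 in A549, where its level was not above background, with -2.51 ± 0.43 (SE; adjusted p = 0.00119). NR1D1 (REV-ERB alpha), a nuclear receptor that represses the clock's activators, rose by 2.56 and 1.23, had -0.37 in A549 and -2.26 ± 0.39 (SE; adjusted p = 0.00119). NPAS2, an activator and partner of BMAL1 named after its values were seen, had -1.34 ± 0.27 (SE; adjusted p = 0.00567).

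**Figure D4:**
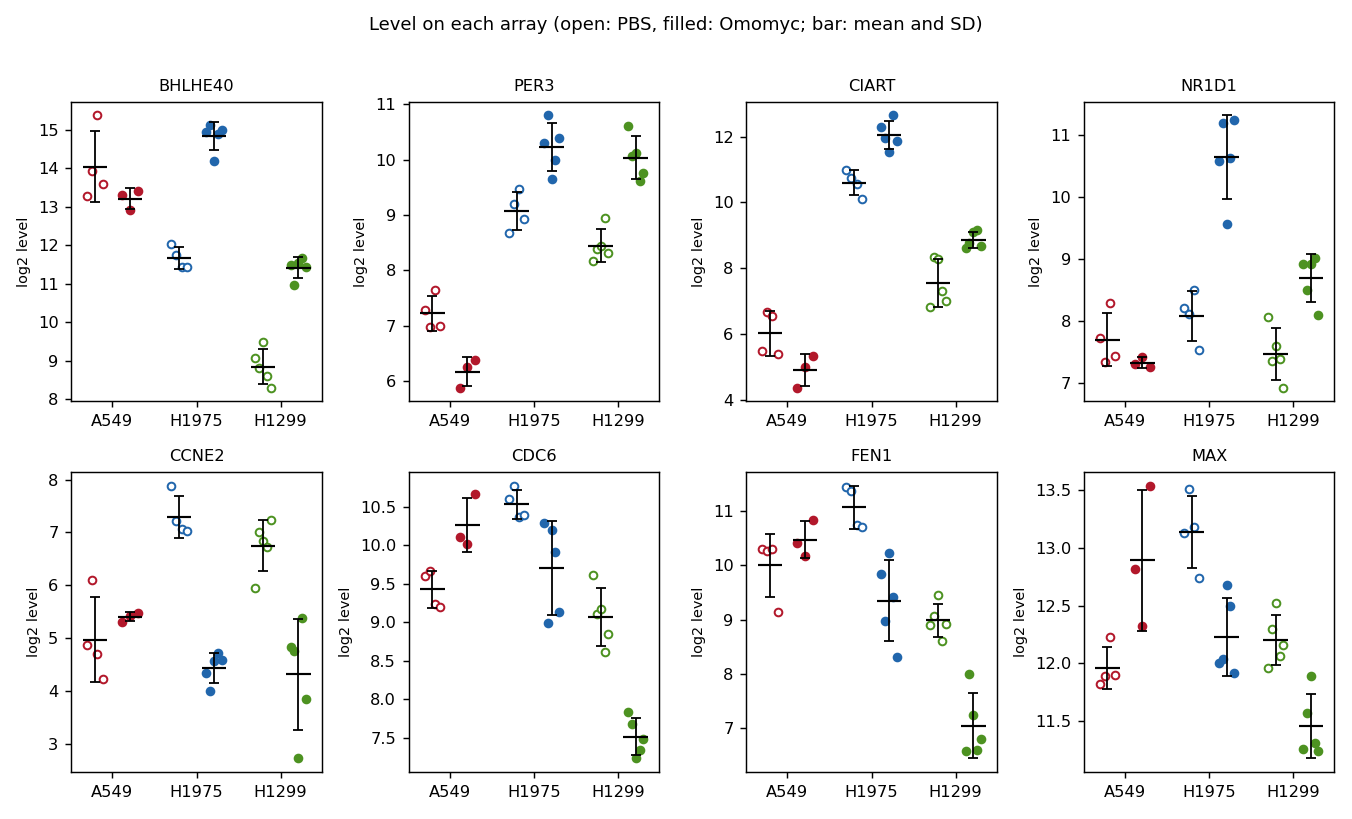
Log2 level on each array for 8 genes, by line, with open points for PBS and filled points for Omomyc, and bars for the group mean and SD. BHLHE40, PER3, CIART and NR1D1 are higher with Omomyc in H1975 and H1299 but not in A549, and CCNE2, CDC6, FEN1 and MAX are lower with Omomyc in H1975 and H1299 but not in A549.

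PIM1, a kinase of survival signalling, rose by 3.39 in H1975 and 1.45 in H1299 and had -0.37 in A549, with -2.79 ± 0.43 (SE; adjusted p = 0.000365). GRAMD1B, a carrier of cholesterol from the plasma membrane, rose by 2.78 and 2.13, had -0.07 in A549 and -2.53 ± 0.27 (SE; adjusted p = 3.59e-06). EPOR, the erythropoietin receptor, and PPP1R3B, a glycogen phosphatase subunit, had -2.4 ± 0.33 (SE; adjusted p = 0.000105) and -2.12 ± 0.42 (SE; adjusted p = 0.00401), but against H1299 alone their differences were -0.86 ± 0.37 and -0.98 ± 0.46 (adjusted p = 0.306 and 0.374). AMPD3, an AMP deaminase, had -2.37 ± 0.35 (SE; adjusted p = 0.000197) at low levels, not above background in A549. CASTOR1, an arginine sensor of mTORC1, had -2.25 ± 0.54 (SE; adjusted p = 0.0174), and without A549 Omomyc replicate 2 it was -2.02 (adjusted p = 0.0843). In the cholesterol list, INSIG1 and HMGCS1 had -1.87 ± 0.39 (SE; adjusted p = 0.0067) and -1.7 ± 0.37 (SE; adjusted p = 0.0096), and the latter was lost without A549 Omomyc replicate 2 (adjusted p = 0.0509), while LSS was higher at 1.54 ± 0.32 (SE; adjusted p = 0.00748). That list rose in part in all lines, with 6, 8 and 14 of 22 called in A549, H1975 and H1299. Of all genes 0.916%, 5.57% and 4.35% rose there. CDKN1A, an inhibitor of cyclin-dependent kinases, rose by 1.63 in H1975 and 1.1 in H1299 and had -0.41 in A549, whose PBS arrays read 12.98, 12.73, 13.65 and 12.52. These were above every other line's, and the difference was -1.78 ± 0.4 (SE; adjusted p = 0.013), and without A549 Omomyc replicate 2 it was -1.41 (adjusted p = 0.0874).

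DNA replication genes fell less in A549 than in the other lines. The list medians were -0.29 in A549, -0.81 in H1975 and -1.23 in H1299. In the difference 13 of 63 replication genes were higher and 0 lower (median 0.78, with 0.65 and 0.65 within the sets). In the lines, 30 fell in H1975, 45 in H1299 and 2 in A549, beside 6.28%, 4.52% and 0.277% of all genes. CDC6, which loads the replicative helicase, read 9.6, 9.66, 9.24 and 9.2 with PBS and 10.11, 10.01 and 10.67 with Omomyc in A549. In H1975 it read 10.6, 10.77, 10.36 and 10.39, then 10.29, 8.99, 10.2, 9.91 and 9.13. H1299 went from 9.61, 9.11, 9.17, 8.61 and 8.85 to 7.83, 7.67, 7.23, 7.34 and 7.48. No line overlapped between treatments, and A549 alone was higher with Omomyc, by 0.84, a change that did not pass on its own. The difference was 2.03 ± 0.34 (SE; adjusted p = 0.000768), and 1.8 and 2.53 within the sets. FEN1, the flap endonuclease of Okazaki fragments, fell by 1.72 and 1.94 and had 0.47 in A549, with 2.3 ± 0.45 (SE; adjusted p = 0.00335). RRM2, a subunit of ribonucleotide reductase, had 1.48 ± 0.26 (SE; adjusted p = 0.00142) and MCM3, a helicase subunit named after its values were seen, 1.61 ± 0.33 (SE; adjusted p = 0.00513). TK1, thymidine kinase, also named after its values were seen, had 1.88 ± 0.42 (SE; adjusted p = 0.0118), and without A549 Omomyc replicate 3 it was 1.66 (adjusted p = 0.0577). CCNE2, cyclin E2, fell by 2.86 and 2.44, but its A549 means of 4.97 and 5.4 were not above background. Its difference was 3.09 ± 0.51 (SE; adjusted p = 0.000814).

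Histones and other genes with a missing fall followed. Of 44 replication-dependent histone genes 6 were higher in the difference and 0 lower (median 0.79), and 11 were higher against H1299 but 0 against H1975. Of all genes 1.4% and 2.7% were higher there, so the 0 against H1975 is near its share. In the lines, 24 fell in H1299 and 1 in H1975, beside 4.52% and 6.28% of all genes. Histone genes are near-identical in coding sequence, and how far the probes separate them is not known here. H2BC11 had 2.38 ± 0.44 (SE; adjusted p = 0.00216) and H2BC8 1.97 ± 0.42 (SE; adjusted p = 0.0083). The linker histone H1-5 had 2.44 ± 0.63 (SE; adjusted p = 0.0294) and lost its call without A549 PBS replicate 3, PBS replicate 4 or Omomyc replicate 3 (at most 0.151). H2AX, the variant marked at DNA breaks, fell by 1.47 and 1.33 and had 0.7 in A549, with 2.1 ± 0.43 (SE; adjusted p = 0.00567). SRSF6, a splicing factor, fell by 2.62 and 1.56, with 2.43 ± 0.43 (SE; adjusted p = 0.00139). MAEA, an E3 ligase subunit, had 2.04 ± 0.39 (SE; adjusted p = 0.00315) and PIGW, an enzyme of GPI anchors, 2.08 ± 0.4 (SE; adjusted p = 0.00315). FJX1 had 2.38 ± 0.56 (SE; adjusted p = 0.0156), and without A549 Omomyc replicate 3 it was 2.09 (adjusted p = 0.0755), and ADCK1 had 2.19 ± 0.53 (SE; adjusted p = 0.0195) and lost its call without A549 PBS replicate 4 or Omomyc replicate 3.

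MAX, the partner of MYC that Omomyc also binds, was the 1 member of 12 MYC network genes called in the difference. It read 11.82, 11.89, 12.23 and 11.9 with PBS and 12.82, 12.32 and 13.54 with Omomyc in A549. The H1975 values were 13.13, 13.51, 13.18 and 12.74, then 12, 12.04, 12.68, 12.5 and 11.91. H1299 read 11.96, 12.3, 12.52, 12.06 and 12.16, then 11.25, 11.57, 11.89, 11.31 and 11.24. No line overlapped, with A549 higher and the others lower under Omomyc, and the A549 change of 0.94 did not pass on its own. MAX fell by 0.92 in H1975 and 0.75 in H1299, and the difference was 1.77 ± 0.3 (SE; adjusted p = 0.00116). Without A549 Omomyc replicate 3, the highest, it was 1.45. MYC itself rose by 0.97 in H1975, fell by 1.15 in H1299 and had -0.23 in A549, so that the difference from the mean of the others was -0.14 ± 0.27 (SE; adjusted p = 0.909). Among 52 nucleolar genes 1 was called, POLR1A, a subunit of RNA polymerase I, at 1.25 ± 0.27 (SE; adjusted p = 0.00888). Beside 2.76% of all genes called, 1 call in the MYC network or nucleolar list is no result about that list.

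For the ATF4 list the mean of the others hides 2 opposite responses. In H1975 24 of 38 members rose and 1 fell (5.57% and 6.28% of all genes). In H1299 2 rose and 27 fell (4.35% and 4.52%), and in A549 4 rose and 0 fell (0.916% and 0.277%). The list medians were 1.14 in H1975, -1.37 in H1299 and 0.15 in A549. The median difference of the list from the mean was 0.34, with 7 higher and 1 lower, the secreted stress factor GDF15. The GDF15 call (adjusted p = 0.0488) was lost when any 1 of 19 arrays was left out, and its difference went from -1.89 to -1.34 without A549 PBS replicate 3. Against H1975 alone the list median was -0.93, with 1 higher and 11 lower (2.7% and 1.92% of all genes), and against H1299 alone 1.73, with 23 higher and 0 lower (1.4% and 1.07% of all genes). DDIT3 (CHOP), a stress factor downstream of ATF4, rose by 1.35 in A549 and 4.61 in H1975 and fell by 1.85 in H1299, and its difference from the mean was -0.03 ± 0.33 (SE; adjusted p = 0.988). SLC6A9, a glycine transporter, and SLC1A4, a neutral amino acid transporter, had 2.48 ± 0.4 (SE; adjusted p = 0.000615) and 2.03 ± 0.43 (SE; adjusted p = 0.0087), with falls of 2.48 and 1.67 in H1299. PSAT1, of serine synthesis, fell by 2.37 in H1299 and had -0.07 in A549, with 1.1 ± 0.24 (SE; adjusted p = 0.00985). ATF4 itself had 0.07 ± 0.25 (SE; adjusted p = 0.956). The tRNA synthetases had the same order, with medians of 0.13, 0.7 and -1.06 in A549, H1975 and H1299, and WARS1 had 1.89 ± 0.22 (SE; adjusted p = 7.94e-06). It rose by 1.47 in A549 and 0.86 in H1975 and fell by 1.69 in H1299, so that the mean of the others was called in the opposite direction although 1 of the 2 lines rose. IL24, a secreted cytokine, rose by 6.4 in H1975 and was not above background in A549 or H1299, with -3.01 ± 0.47 (SE; adjusted p = 0.000412).

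**Figure D5:**
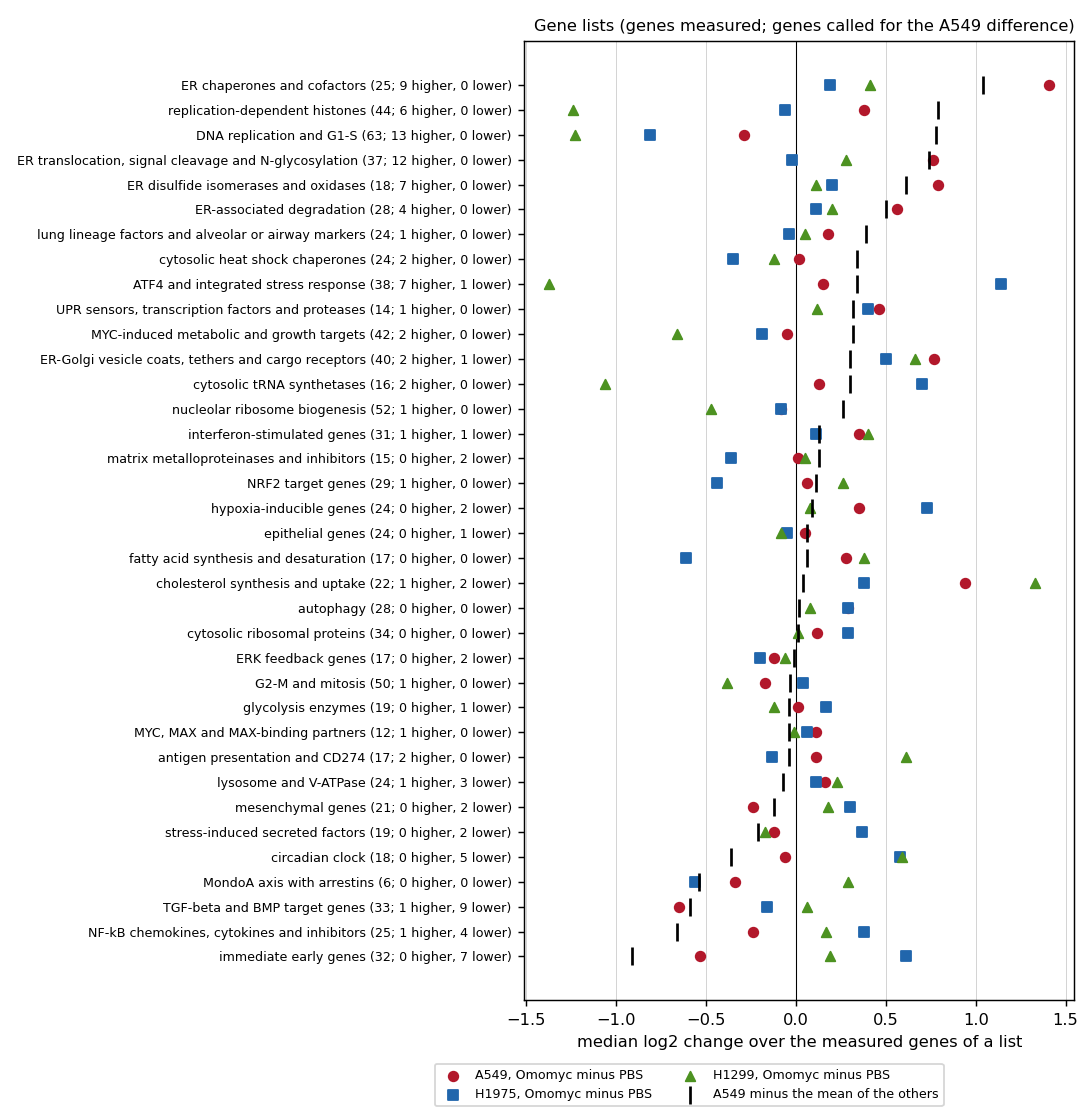
Median log2 change over the measured members of each gene list shown, in A549, H1975 and H1299, and the median A549 difference from the mean of the others (black bar), with the number of members measured and called beside each list name. The ER chaperones have the highest median difference at 1.04 and the immediate early genes the lowest at -0.91, and the ATF4 list shows 1.14 in H1975 and -1.37 in H1299.

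Several lists showed few or no calls in the difference. Of all genes 2.76% were called, 1.58% higher and 1.18% lower. Counts of 0 or 1 in the lists below are near these shares and are no result about those lists. Of 34 ribosomal protein genes 0 were called (median 0.01), as were 0 of 28 autophagy genes, 0 of 17 fatty acid genes and 0 of 6 genes of the MondoA axis, all by limma. At an unadjusted p under 0.05 the counts were 0, 3, 6 and 2, and with the array set as a block 0, 0, 2 and 2 genes were called. TXNIP, a MondoA target, fell in A549 by 1.43, and its difference of -1.2 ± 0.34 (SE; adjusted p = 0.0562) did not pass. The G2-M list had 1 of 50 higher, SPC25, and the NRF2 list 1 of 29 higher, AKR1C3. The lysosomal list held 2 genes with missing rises, CTSL, a protease, at -1.72 ± 0.27 (SE; adjusted p = 0.000424) and NPC1, a cholesterol exporter, at -1.35 ± 0.27 (SE; adjusted p = 0.00428), in a list with 1 higher and 3 lower of 24. PFKFB3, a glycolytic regulator, had -1.81 ± 0.36 (SE; adjusted p = 0.00472), and of 24 hypoxia-inducible genes 2 were lower and 0 higher. Among the lists not described above, the MYC-induced metabolic genes had 2 of 42 higher, AMD1 and SRSF1, the heat shock chaperones 2 of 24 higher, DNAJA1 and CRYAB, and the antigen presentation genes 2 of 17 higher, ERAP1 and PDIA3. The interferon list had 1 of 31 higher, IFIT5, and 1 lower, RSAD2. Lower members were 2 of 17 ERK feedback genes, 2 of 15 metalloproteinase genes, 2 of 21 mesenchymal genes, 2 of 19 secreted stress factors, 1 of 24 epithelial genes and 1 of 19 glycolysis enzymes, and 1 of 24 lung lineage genes, LAMP3, was higher. Of the genes named in these lists SPC25 lost its call when any 1 of 22 arrays was left out, PDIA3 with 20, SRSF1 with 18, DNAJA1 and IFIT5 with 17, AMD1 with 5, AKR1C3 and ERAP1 with 4 and CRYAB with 2. Their adjusted p was highest without A549 Omomyc replicate 1 or 3, between 0.0635 and 0.204. RSAD2 and LAMP3 kept theirs without each array. The median difference of 15 lists, all within 0.3 of 0, changed sign under at least 1 alternative, and those of the ER, replication, histone, TGF-beta, immediate early, NF-kB and clock lists kept theirs under every alternative run.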

How the data were processed

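RNA from 26 samples of 3 lines, with Omomyc or PBS, was read on 1-colour expression arrays. The deposited values are log2 intensities of 24351 features, which the authors made with RMA in Partek, per the submitters' processing notes, and their values ran from 1.35 to 19.91. RMA can even out whole arrays, but the deposited array means ran from 6.94 to 7.36, so the arrays do not share one distribution. The number of arrays limits the precision. The genome build behind the probes and the software versions are not given in the sources used here. Gene symbols came from the platform's probe annotation: 17709 features had 1 symbol, 6642 had none and were left out, and for genes with several features the one with the highest mean was kept, leaving 17687 genes.

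Group means were fitted with limma 3.58.1 in R 4.3.3 over all 26 arrays with 20 residual degrees of freedom and no covariate. The A549 response difference and the single contrasts were taken from this fit, and p-values were adjusted by Benjamini-Hochberg over all genes, with calls at an adjusted p under 0.05. On simulated data, 87% of 100 genes changed by 2 on the log2 scale and 20% of 100 changed by 1 were recovered, with 2 false calls. The simulated noise was independent between arrays and held no array sets, so these counts do not cover errors that the sets may bring.

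The genes named were the 10 with the largest absolute difference in each class whose mean exceeded the median of all genes in at least 1 group, up to 8 opposite genes, up to 4 members per list with the smallest p, and 8 core genes. Genes said to be named after their values were seen fall outside that rule. The members, lists and tests were chosen with earlier results of these data known, and 1 list is not reported here. Alternatives covered normalization, a filter on low values, probe set choice, moderation, array weights, blocks and leaving out each array.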

Additional observations from a re-analysis of the deposited data

Results flagged for a closer look

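Within 280 groups of 4 or 5 arrays tested for a single array standing apart, 14 were picked out, and chance picks about 1 in 20. The number picked out is thus what chance gives, and the arrays are listed for reference only. The array was the highest of its group in these cases. AMPD3 read 7.8 on H1299 Omomyc replicate 2 against 6.71 on the nearest array and CASTOR1 read 7.91 on H1975 PBS replicate 1 against 6.28 on the nearest array. HYOU1 read 13.66 on A549 PBS replicate 2 against 13.34 on the nearest array and INPP5F read 9.04 on H1299 Omomyc replicate 1 against 8.79 on the nearest array. JUNB read 10.11 on H1299 Omomyc replicate 3 against 9.64 on the nearest array and PLAC8 read 9.04 on H1975 Omomyc replicate 3 against 8.01 on the nearest array. SRSF6 read 13.24 on A549 PBS replicate 3 against 12.52 on the nearest array. It was the lowest of its group in the others. ADCK1 read 4.62 on H1975 Omomyc replicate 5 against 5.82 on the nearest array and ANXA6 read 7.59 on A549 PBS replicate 4 against 8.99 on the nearest array. BHLHE40 read 14.2 on H1975 Omomyc replicate 3 against 14.89 on the nearest array and CASTOR1 read 3.08 on H1299 PBS replicate 2 against 5.03 on the nearest array. CRELD2 read 8.64 on H1975 Omomyc replicate 5 against 9.39 on the nearest array and FEN1 read 9.13 on A549 PBS replicate 4 against 10.27 on the nearest array. MMP7 read 9.71 on A549 PBS replicate 4 against 10.68 on the nearest array. Of the 14, 1 fell on A549 PBS replicate 3.

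The response of A549 differed from the mean of the other lines by the test of the difference itself in 488 genes, of which 50 were named by rank or as core genes. The larger positive differences (log2) were CRELD2 at 4.27, CCNE2 at 3.09, SCG2 at 2.97, KRT4 at 2.81, PLAC8 at 2.77, LAMP3 at 2.6, HID1 at 2.55, H1-5 at 2.44, SRSF6 at 2.43, GMPPB at 2.43, FICD at 2.41, FJX1 at 2.38 and LCN2 at 2.31. The smaller ones were ASS1 at 2.31, FEN1 at 2.3, SERPINF1 at 2.21, ADCK1 at 2.19, H2AX at 2.1, PIGW at 2.08, MAEA at 2.04, CDC6 at 2.03, EML2-AS1 at 2.01, HYOU1 at 1.94, ANXA6 at 1.93 and HERPUD1 at 1.29. The larger negative differences (log2) were BHLHE40 at -3.7, ID3 at -3.3, SNAI2 at -2.94, PIM1 at -2.79, ID1 at -2.73, JUNB at -2.72, GRAMD1B at -2.53, CIART at -2.51, PER3 at -2.43, EPOR at -2.4, AMPD3 at -2.37, NR1D1 at -2.26 and PMEPA1 at -2.26. The smaller ones were CASTOR1 at -2.25, GAL3ST1 at -2.24, PPP1R3B at -2.12, MMP7 at -2.05, PRG4 at -1.82, CDKN1A at -1.78, HHIP at -1.69, RASSF2 at -1.66, ABCG1 at -1.55, FBN2 at -1.5, INPP5F at -1.42 and MMP2 at -1.35. SNAI2 was not above background in A549 in either treatment.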

How the results depend on the processing

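Counts of called genes are given for the A549 difference (488), for A549 against H1975 (817) and against H1299 (437), for genes called the same way in H1975 and H1299 (420) and for genes called in A549 (211), in this order. They were 922, 1367, 849, 686 and 352 after quantile normalization and 1264, 1822, 1133, 850 and 502 with the array set as a block. With array weights the difference had 902, and the lines alone 1253 and 712, and A549 477. At an adjusted p under 0.01 they were 164, 362, 146, 185 and 113, and 169 genes were called the same way in H1975 and H1299 with an absolute change of at least 1. The first set alone gave 65, 277, 21, 18 and 50, and the second alone 76, 160, 121, 67 and 44, with fewer arrays in each. The cause of the other shifts was not tested.

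Leaving out 1 array gave 279 to 560 genes for the difference, 601 to 891 against H1975, 270 to 470 against H1299, 340 to 434 called alike in the other lines and 128 to 228 in A549. The counts that moved by over 1.5 times were those without A549 Omomyc replicate 2 (279 and 270), replicate 1 (296, 274 and, in A549, 128) or replicate 3 (285 against H1299), and without A549 PBS replicate 4 (139 in A549).

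The replicate numbers were not taken as pairing the samples, since the deviations of same-numbered arrays correlated at -0.2 to 0.39 and at -0.26 to 0.082 once the array set was removed. With line and replicate number as a replicate block the difference had 597 genes, 250 higher and 347 lower, and with the array set added the count against H1299 was 801.

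Of 201 named genes 132 were called, and all 132 kept their direction under every alternative that gave a value. Their calls were kept by 132 with the array set as a block, 129 after quantile normalization, 120 with median centring, 111 with the replicate block, 28 in the first set alone and 33 in the second. Without each array in turn 74 kept the call and 58 lost it at least once. Only 3 A549 Omomyc arrays, none in the third set, limit every value given.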
